A study of Arabidopsis thaliana with 4 samples.

Results

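The proximal promoter sites of FRUITFULL (FUL) are the FUL binding sites whose maximum lay 1 to 1000 bp upstream of the start codon of a protein-coding gene and within no start-to-stop-codon span of such a gene. They were found by placing the position of the maximum of every site of the deposited list, at any score, on the gene models, and the gene with the nearest start codon was taken as the gene of the site. This gave 840 of 2831 sites (29.7%), which belonged to 814 of 27444 protein-coding genes (2.97%). The other sites lay farther upstream of a start codon, up to 3000 bp (425 sites, called distal upstream sites), inside a start-to-stop-codon span (1201 sites) or elsewhere (365 sites).

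The list came from a ChIP-Seq experiment with Arabidopsis pistils and siliques of stages 12 to 16, in which 2 ChIP replicates were precipitated with an antibody against GFP and 2 input samples were sequenced without antibody. All 4 samples had the same genotype: the *ful-1* mutant in a mixed Col/Ler background with a *pFUL:FUL-GFP* transgene, so that the tagged protein was made under the *FUL* promoter, and no sample without the tag was included. The plants were grown in long days at 22 °C, on soil by the sample labels and on rockwool by the methods. The list gives 1 score per site, in which both replicates were combined against the input by the authors, and no value per library. Therefore the spread between replicates and the sequencing depth are unknown, no difference could be tested over samples, and the tissue could not be checked against marker genes. The intervals given below are 95% intervals that cover the counting of sites or genes only, and sites are not replicates.

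FUL is a MADS domain transcription factor that is known for the patterning of the fruit valves and for its role in the transition to flowering. MADS domain proteins bind DNA as dimers, and many of their targets carry a CArG box, which is spelled CC(A/T)6GG. In plants the stretch just upstream of a gene, with its transcript start and its 5′ untranslated region (5′ UTR), holds much of the sequence that transcription factors recognise. One of these sequences is the G-box CACGTG, the core element of basic helix-loop-helix and bZIP factors.

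The sequences of the highest-scored sites with a CArG box are shown first, because this box is the element that FUL itself is known to recognise. The 11 stretches of 30 bp below are centred on the box, which is in capitals, and come from the 10 highest scores among sites whose window held a box, with equal scores at the lowest place. A window reached 100 bp from the maximum in both directions (201 bp in all). Each is given in 5′ to 3′ direction on the strand of the gene, from the RefSeq TAIR10.1 genome.
ATG18C, chr2:17032150-17032179, plus strand, score 107.94: tcacttttttCCAAATATGGattgttttgt
AT5G44590, chr5:17987298-17987327, plus strand, score 42.29: attttatttaCCAAATTTGGcttatagttt
AT5G58900, chr5:23785275-23785304, minus strand, score 33.42: agttttctttCCATTTATGGgttcatttgc
SHP2, chr2:17819837-17819866, plus strand, score 29.21: aaagggattaCCAAAAAAGGaaagtttcca
AT2G22530, chr2:9577621-9577650, minus strand, score 22.42: aaccttttagCCATTTTAGGcttctttctt
AT1G20890, chr1:7267559-7267588, minus strand, score 21.31: gcctttgggcCCATAAATGGaccccacaaa
AT3G11420, chr3:3591615-3591644, plus strand, score 19.45: gcttgtcactCCAAAAAAGGcaaaacaaaa
AT5G52660, chr5:21362348-21362377, minus strand, score 19.45: aagaaaagacCCTTTTTTGGtataaacgga
AT1G25422, chr1:8918358-8918387, plus strand, score 17.65: ccatatacgtCCTTAAATGGaaacatttat
BGLU6, chr1:22224276-22224305, minus strand, score 17.65: ttctgacaagCCAATAATGGaacgaaaaga
AT2G19460, chr2:8430474-8430503, plus strand, score 17.65: ttacttctttCCTTAAAAGGaaaagaaaat

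The 9 stretches below show the G-box, in capitals, that was nearest to the maximum, for the 8 highest-scored sites with such a box and for *BES1*. They are shown because the G-box was found at more of the sites than the CArG box.
ATG18C, chr2:17032291-17032320, plus strand, score 107.94: agaaaacgcagaCACGTGaatattaccaga
AT2G03290, chr2:999293-999322, plus strand, score 55.11: attaaataattaCACGTGtgcaaagaacgt
AT2G03040, chr2:893665-893694, minus strand, score 54.14: ataaaataattaCACGTGtgcaaagaacgt
RTFL15, chr1:25870337-25870366, minus strand, score 43.34: aaagatggggtcCACGTGggtatggagggg
AT5G44590, chr5:17987264-17987293, plus strand, score 42.29: tcaaattcaatcCACGTGtggtttgaacac
NAC014, chr1:11978730-11978759, minus strand, score 40.02: ttataggagaacCACGTGaaggaatctaac
RIC7, chr4:14118297-14118326, minus strand, score 35.58: gtaagagattaaCACGTGtcgataatatat
CXE12, chr3:18038251-18038280, minus strand, score 33.42: aatgacacaactCACGTGtctcaaccatac
BES1, chr1:6688605-6688634, plus strand, score 14.22: attcatcatcgaCACGTGgctggtttaact

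The 3 whole windows of 201 bp that follow are from high-scored sites with different boxes, none of which overlapped an annotated transcript. The window of *ATG18C* held a CArG box and a G-box, that of *SHP2* a CArG box alone and that of *GH3.3* neither, with the boxes in capitals.
ATG18C, chr2:17032119-17032319, plus strand, score 107.94: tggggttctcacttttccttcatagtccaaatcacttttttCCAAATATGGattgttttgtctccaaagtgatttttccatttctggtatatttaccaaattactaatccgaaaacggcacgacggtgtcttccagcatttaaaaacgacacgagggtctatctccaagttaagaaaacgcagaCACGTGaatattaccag
SHP2, chr2:17819770-17819970, plus strand, score 29.21: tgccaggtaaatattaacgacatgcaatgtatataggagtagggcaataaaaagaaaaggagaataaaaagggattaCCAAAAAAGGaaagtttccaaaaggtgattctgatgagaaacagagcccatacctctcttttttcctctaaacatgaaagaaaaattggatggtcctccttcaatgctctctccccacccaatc
GH3.3, chr2:9866668-9866868, minus strand, score 68.54: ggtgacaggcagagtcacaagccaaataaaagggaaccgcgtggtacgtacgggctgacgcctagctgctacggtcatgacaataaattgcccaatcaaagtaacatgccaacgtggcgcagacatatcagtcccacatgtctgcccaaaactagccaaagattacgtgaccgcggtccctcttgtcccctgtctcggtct

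The scores of the 840 sites ranged from 3 to 291.70, with a median of 4.43 and quartiles of 3.4 and 6.81. The deposited list gives no false discovery rate, and it also holds sites with lower scores than the best site of any gene in the published list of targets. A score of 5.6 was therefore used to set the higher-scored sites apart. The 569 of 840 sites below it are candidate sites whose significance is not given. They are included in all counts of sites or genes of any score. Significance is not given for the sites at or above this score either. In the whole list, 846 of 2831 sites reached it. The published list of significant sites is shorter, so this score does not mark the significant sites. A score of at least 5.6 was reached by 271 of the 840 sites (32.3%, 29.2 to 35.5), against 29.9% of all sites of the list. The share was lower than in the distal upstream sites, of which 164 of 425 reached this score (38.6%), with a difference of -6.33 percentage points (-11.95 to -0.78). This difference depended on the limit between both groups, and with 2000 bp in place of 1000 bp it was -0.58 points (-8.98 to 7.15), which did not exclude 0. It was higher than in the start-to-stop-codon spans, where 279 of 1201 sites reached it (23.2%), with a difference of 9.03 points (5.09 to 13.0). The proximal promoter sites had a median length of 151 bp, against 177 bp for the distal upstream sites and 91 bp for those inside the spans. The position of the maximum was the first base of the site for 295 of the 840 sites, and 236 of these had a score under 3.5.

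**Figure D1:**
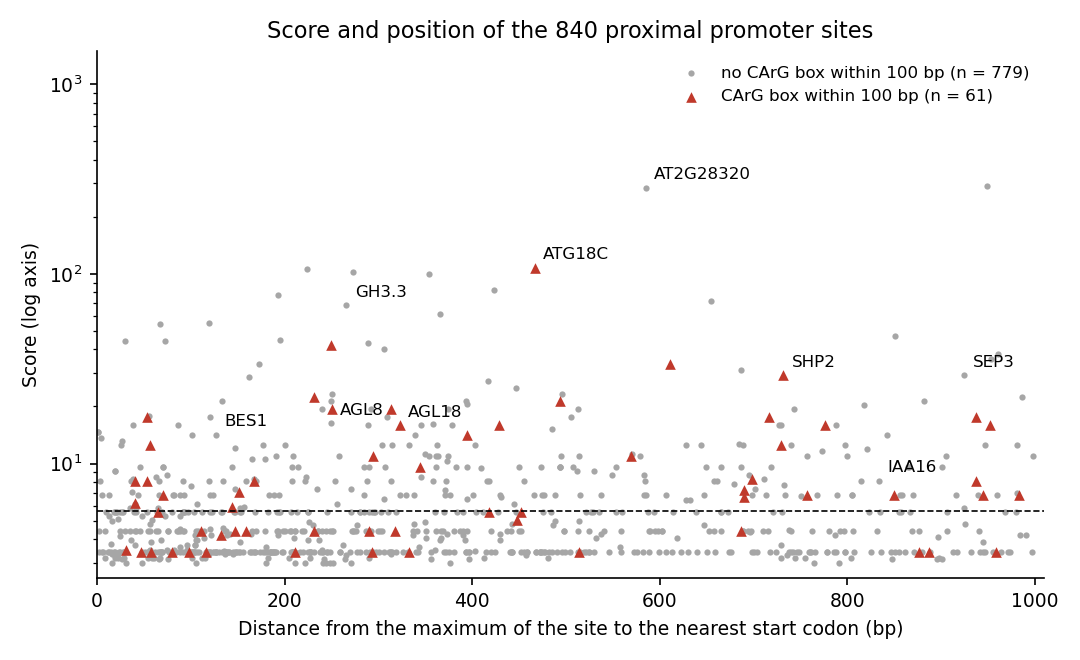
Score (log axis) of each of the 840 sites against the distance in bp from its maximum to the nearest start codon. Red triangles are the 61 sites whose window held a CArG box, grey points the other 779, and the dashed line is a score of 5.6. Sites with scores over 20 occurred from under 100 bp to over 900 bp, and 36 of the 61 sites with a CArG box lay at or above the line.

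The 3 sites of AT3G41762, a gene for an uncharacterised protein on chromosome 3, had scores of 291.70, 77.79 and 71.79 at 949, 193 and 655 bp from the start codon. Their maxima lay within 264 to 1020 bp of an annotated ribosomal RNA gene, and each window had between 2 and 6 further copies in the genome at an identity of at least 80%. The site of AT2G01021, with a score of 20.28, was also close to a ribosomal RNA gene (29 bp). Because the sequence is repeated, these 4 scores are uncertain. All other proximal promoter sites lay over 10000 bp from an annotated ribosomal RNA gene.

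Outside these repeats, the highest score belonged to AT2G28320, whose protein combines a pleckstrin homology domain with a START domain, which binds lipids. Its site had a score of 285.25 and a length of 505 bp, and the maximum was 585 bp from the start codon and 45 bp from the transcript start. The next site was that of *ATG18C*, an autophagy gene, with a score of 107.94 at 467 bp. The third was that of *IAA4* (listed as *ATAUX2-11*), a gene for an Aux/IAA repressor of the auxin response, with a score of 105.57 at 224 bp, inside the 5′ UTR. These 3 sites thus differed in position, and 1 of them held a CArG box.

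Scores of 102.17 and 99.32 were found for AT3G10040, annotated as a sequence-specific DNA binding transcription factor, and for AT1G11560, of the oligosaccharyltransferase complex and magnesium transporter family. AT5G21280, a hydroxyproline-rich glycoprotein gene, had a score of 82.62 at 423 bp. The site of *GH3.3*, an auxin-responsive gene of the family that conjugates auxin to amino acids, had a score of 68.54 at 266 bp. That of *GRP2B*, a glycine-rich protein gene, had 61.60 at 366 bp. None of these 5 sites had a CArG box.

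A pair of sites belonged to related genes of the emp24/gp25L/p24 family, which act in transport between the endoplasmic reticulum and the Golgi. The site of AT2G03290 had a score of 55.11 at 119 bp and that of AT2G03040 a score of 54.14 at 67 bp. The windows of both shared 95.1% of the bases over 203 aligned positions, and this was the only pair of windows among the 840 sites that matched at 80% identity or more over at least 80% of their length. Both stretches printed above have the same G-box, followed by the same bases on the strand of the gene. Whether reads of one copy were assigned to the other was not tested, and the 2 scores are not treated as separate measurements. In all, 25 sites (2.98%) had a further copy of their window in the genome.

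The remaining sites among the 20 highest scores, between 46.94 and 40.02, belonged to genes of various functions. *ECT6* codes for a protein of the YTH family, which reads methylated adenosine in RNA (46.94), *TAP38* for a thylakoid phosphatase (44.60) and AT5G06130 for a chaperone of the DnaJ type (44.39). *RTFL15*, with a score of 43.34, codes for a small peptide of the ROTUNDIFOLIA family and had its site in the 5′ UTR. AT5G44590 codes for a methyltransferase and had a score of 42.29 with both a CArG box and a G-box. *NAC014*, with 40.02, codes for a NAC domain transcription factor.

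The sites were dense near the start codon. Per Mb of sequence that met the rule, there were 38.9 sites in the proximal promoters, 24.5 in the distal upstream stretches, 23.3 in the start-to-stop-codon spans and 12.7 in the remaining genome. With a score of at least 5.6 the densities were 12.6, 9.46, 5.41 and 4.60 sites per Mb. The proximal promoters made up 18.1% of the genome and held 29.7% of the sites. The median distance from the start codon was 300.5 bp (277 to 333), against 422 bp for all bases that met the rule. Within the limits of the rule the density of sites fell from 58.8 per Mb at 1 to 100 bp to 27.2 per Mb at 901 to 1000 bp.

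The density of sites with a score of at least 5.6 went up and down between the bins, with 15.9 per Mb at 1 to 100 bp, 17.1 at 301 to 400 bp, 8.62 at 501 to 600 bp, 9.01 at 801 to 900 bp and 12.9 at 901 to 1000 bp. Their median distance was 373 bp (339 to 423). Of the 420 sites at over 300 bp, 166 reached this score (39.5%), against 105 of the 420 sites at 300 bp or less (25%), a difference of 14.5 points (8.22 to 20.7).

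**Figure D2:**
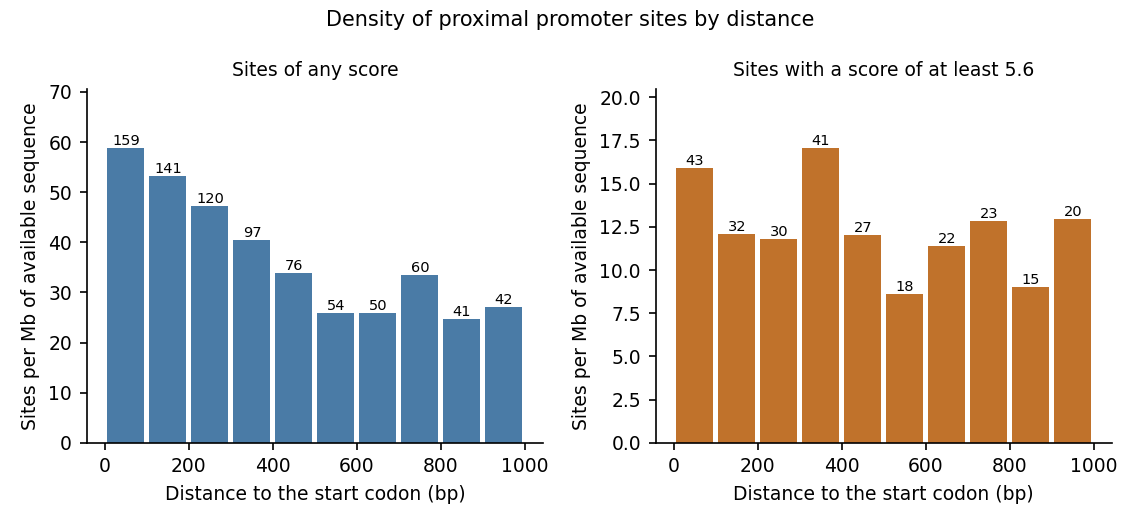
Number of proximal promoter sites per Mb of available sequence in 100-bp bins of the distance to the start codon, for sites of any score (left) and with a score of at least 5.6 (right), with the number of sites above each bar. The density at any score fell from 58.8 to 27.2 per Mb between the first and the last bin, whereas that of the higher-scored sites was 15.9 and 12.9 per Mb in these bins and between 8.62 and 17.1 per Mb in the others.

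Many of the sites were not upstream of the transcript. The maximum lay inside the transcript of its own gene for 359 sites (42.7%), in 351 cases in an exon of the 5′ UTR and in 8 in an intron. A further 407 sites (48.5%) were intergenic, 44 lay in the transcript of another protein-coding gene and 30 in that of a gene of another type. The maximum was within 200 bp of the annotated transcript start, on either side, for 483 sites (57.5%). A score of at least 5.6 was reached by 149 of the 407 intergenic sites (36.6%) and by 98 of the 351 in 5′ UTR exons (27.9%), with a difference of 8.69 points (2.00 to 15.2). The intergenic sites were also farther from the start codon, with a median of 450 bp against 147 bp, and the share of this distance in the difference was not tested.

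The sites nearest to the lower limit of the rule were those of *RLP26*, a receptor-like protein gene, and *KCO6*, a potassium channel gene, both at 1 bp and both with a score of 14.71, and that of AT5G11550 at 2 bp (3.4). At the upper limit were *TMO6* at 991 bp (4.18), *SPL1* at 997 bp (3.4) and the kinase gene AT2G24360 at 998 bp (11.03). The first sites beyond it, all at 1004 bp, were those of *ETC1* (3.4), *DPD1* (7.30) and *ARA-2* (6.43). The scores on both sides of the limit thus overlapped.

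More than one start codon was within reach of 130 sites (15.5%). For 129 of these the start codons were on opposite strands, and 1 of the 130 was upstream of 3 genes. A score of at least 5.6 was reached by 37 of these 130 sites (28.5%) and by 234 of the 710 sites with a single gene (33.0%), a difference of -4.50 points (-12.4 to 4.45), which did not exclude 0. The highest-scored of them was the site between *ATDUF1*, an agenet domain gene, at 30 bp and *DBE1*, a gene for a starch debranching enzyme, at 859 bp, with a score of 44.28. The site between *SAUR29* and AT3G03826 had a score of 25.16 at 447 and 595 bp. The other 3 of the 5 highest were those of AT3G63070 with *EDL3* (20.56), *PnsB4* with AT1G18720 (19.45) and AT3G17400 with the S-adenosylmethionine synthetase gene *MTO3* (16.27). For such sites the list does not show which gene, if either, is the target.

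A CArG box, searched as CC(A/T)6GG in the window of 201 bp (the pattern covers both strands), was present at 61 of the 840 sites (7.26%, 5.69 to 9.22). In 112316 windows of the same length tiled over the proximal promoters of all protein-coding genes the share was 1.59%. Of the distal upstream sites 35 of 425 had a box (8.24%), and the difference of -0.97 points (-4.36 to 2.01) did not exclude 0. Of the sites inside the spans 23 of 1201 had one (1.92%), 5.35 points less (3.52 to 7.40). The windows of the proximal promoter sites had a median GC content of 39.1%, against 32.8% for the tiled windows. Among windows with 35 to 40% GC the shares with a box were 8.49% of 318 sites and 1.85% of the tiled windows.

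The CArG box was more frequent at higher scores. It was found at 36 of 271 sites with a score of at least 5.6 (13.3%) and at 25 of 569 below (4.39%), a difference of 8.89 points (4.83 to 13.7). From the lowest to the highest of 5 score classes the shares were 4.08%, 4.73%, 10.7%, 17.5% and 14.6%, the last over 41 sites with a score of at least 20 and an interval of 6.88 to 28.4%. With 1 mismatch allowed, 365 of the 840 sites (43.5%) had a box, against 25.9% of 11231 tiled windows. The related patterns CC(A/T)7G and C(A/T)8G have a longer run of A or T and so do not match a CArG box. They were at 14.6% and 13.1% of the sites and in 9.15% and 17.8% of the tiled windows.

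The 61 sites contained 63 boxes of 22 different sequences, with both strands counted together. The most frequent was CCAAAAAAGG with 13 boxes, the form of the *SHP2* site, followed by CCAAATATGG with 6, the form at *ATG18C* and *AGL18*, and CCATAAATGG with 6, the form at AT1G20890. In 33 of the 63 boxes the 6 central bases held a run of 4 A or 4 T. The median distance from the maximum to the centre of the nearest box was 33.5 bp, and 32 of the 61 boxes lay on the side of the start codon. At AT2G19460, a gene with a DUF3511 domain, the centre was 0.5 bp from the maximum (score 17.65), and at AT1G25422 it was 2.5 bp away (17.65). At *ATG18C* it was 54.5 bp away.

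Among the other highest-scored sites with a box, AT5G58900 and AT5G52660 code for Homeodomain-like transcription factors and had scores of 33.42 and 19.45. AT2G22530 codes for an alkaline-phosphatase-like protein (22.42), AT1G20890 is annotated as a caveolin-1 protein (21.31) and AT3G11420 as a putative glycosyltransferase (19.45). The paper lists the peak of AT2G22530 also for the MADS domain gene *SVP*, with the same score. *BGLU6*, a beta glucosidase gene, had its box 33 bp upstream of the start codon in the 5′ UTR (17.65). Apart from the pair of Homeodomain-like genes, the annotations of the 11 genes named different functions or none.

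The G-box was found at 158 of the 840 sites (18.8%, 16.3 to 21.6), against 3.36% of the tiled windows. The share was 21.2% for the distal upstream sites, with a difference of -2.37 points (-7.2 to 2.2) that did not exclude 0, and 6.08% for the sites inside the spans, 12.7 points less (9.82 to 15.8). Like the CArG box it was more frequent at higher scores, at 64 of 271 sites with a score of at least 5.6 (23.6%) and 94 of 569 below (16.5%), a difference of 7.10 points (1.40 to 13.2). Among windows with 35 to 40% GC it was at 15.4% of the sites and in 4.81% of the tiled windows, and among those with 40 to 45% GC at 27.8% of 252 sites and in 6.45%. The G-box reads the same on both strands, and 24 of the 158 sites had more than one. Both the CArG box and the G-box were present at 11 sites, among them *ATG18C*, AT5G44590, AT1G20890 and AT2G19460, and one or the other at 208 (24.8%). Among the 41 sites that scored 20 or more, 26 had neither.

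The CArG box, the G-box and the motif TGGGCC, described below, were all concentrated around the maximum. In the 2 bins of 50 bp next to the maximum, a CArG box was present at 2.44% of the sites per bin, against 0.283% per bin at 300 to 500 bp, which is a ratio of 8.63. The ratio for the G-box was 4.66 (5.06% and 1.09%), although the highest single bin of this motif, with 6.79%, was that from 50 to 100 bp. For TGGGCC the ratio was 4.77 (5.18% and 1.09%). For the CArG box and the G-box the ratios were 8.67 and 7.29 at the distal upstream sites, and 2.55 and 1.43 inside the spans. The outer bins were not all promoter sequence, since those on the side of the gene reached past the start codon for many sites.

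**Figure D3:**
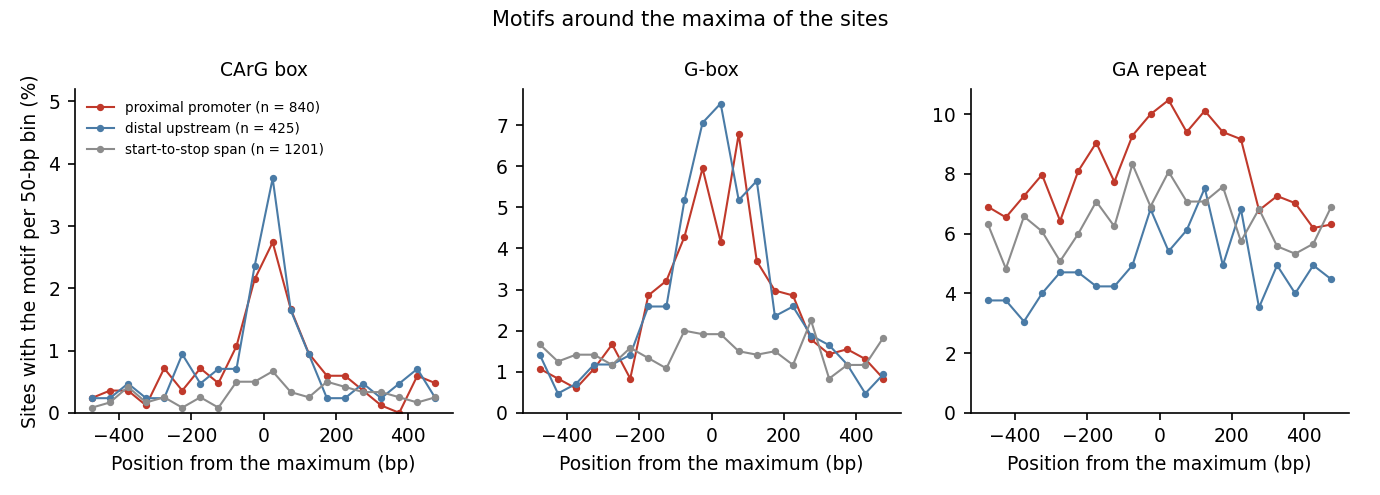
Share of sites with a CArG box (left), a G-box (middle) or a GA repeat (right) in bins of 50 bp from -500 to 500 bp around the maximum, for the 840 proximal promoter sites (red), the 425 distal upstream sites (blue) and the 1201 sites inside start-to-stop-codon spans (grey). The CArG box was highest next to the maximum in both upstream groups (a mean of 2.44% per central bin in the proximal promoters), the G-box rose over a wider stretch and reached 6.79% at 50 to 100 bp, and the GA repeat formed a broad rise.

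Among the sites with a G-box, *RIC7*, a gene for an effector of ROP GTPases, had a score of 35.58 with the box 8.5 bp from the maximum. *CXE12* (33.42), a gene for an alpha/beta hydrolase, and *NAC014* had it 67.5 and 54.5 bp away. At *MYBC1*, a gene for a Homeodomain-like factor of the MYB list, the box was 13.5 bp from the maximum (21.31). *BES1*, also named *BZR2*, a central transcription factor of the brassinosteroid response, had a score of 14.22 in its 5′ UTR at 127 bp from the start codon, with the G-box 66.5 bp from the maximum. In the paper's list of targets *BES1* has a higher best score, from a position farther upstream.

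Proximal and distal sites differed in some of the other motifs. The sequence TGGGCC, the core of the site II element of plant promoters, was at 15.7% of the proximal promoter sites and at 15.3% of the distal ones, against 5.41% of the tiled windows. Among windows with 35 to 40% GC it was at 15.4% of the sites and in 8.45% of the tiled windows. With 40 to 45% GC the shares were 17.9% and 9.31%. Unlike the CArG box and the G-box, it was at 16.7% of the sites in the lowest score class and 7.32% (2.52 to 19.4) in the highest. Between proximal and distal sites GAGAGA differed, with 256 of 840 (30.5%) against 89 of 425 (20.9%), a difference of 9.54 points (4.43 to 14.3). AAACCCTA, known as the telo box, was at 5.48% and 1.18% of the sites, a difference of 4.30 points (2.25 to 6.18). Both strands were searched. GAGAGA was in 21.5% and AAACCCTA in 4.16% of the tiled windows. The interval of the AAACCCTA share at the proximal promoter sites (4.13 to 7.23) included the latter value. No windows were tiled over the distal stretches. Whether both stretches differ in GAGAGA and AAACCCTA in the same way without a FUL site was therefore not tested.

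The 5′ UTR moved with both of these motifs. GAGAGA was at 47.0% of the 351 sites in 5′ UTR exons and at 18.2% of the 407 intergenic sites, a difference of 28.8 points (22.3 to 35.1), and AAACCCTA at 9.12% and 2.70%, a difference of 6.41 points (3.1 to 10.1). For the G-box the order was the opposite, with 15.7% and 22.4% (-6.69 points, -12.2 to -1.06). In addition GAGAGA was less frequent at scores of at least 5.6 (23.6%) than below (33.7%), a difference of -10.1 points (-16.3 to -3.54). The auxin response elements TGTCTC and TGTCGG were at 12.6% and 7.86% of the sites and in 10.1% and 3.37% of the tiled windows. TATAAA, the TATA box sequence, was at 24.8% of the sites and in 34.8% of the tiled windows, which are richer in A and T. A match of these letters is a description of the sequence and does not show that a factor binds there.

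**Figure D4:**
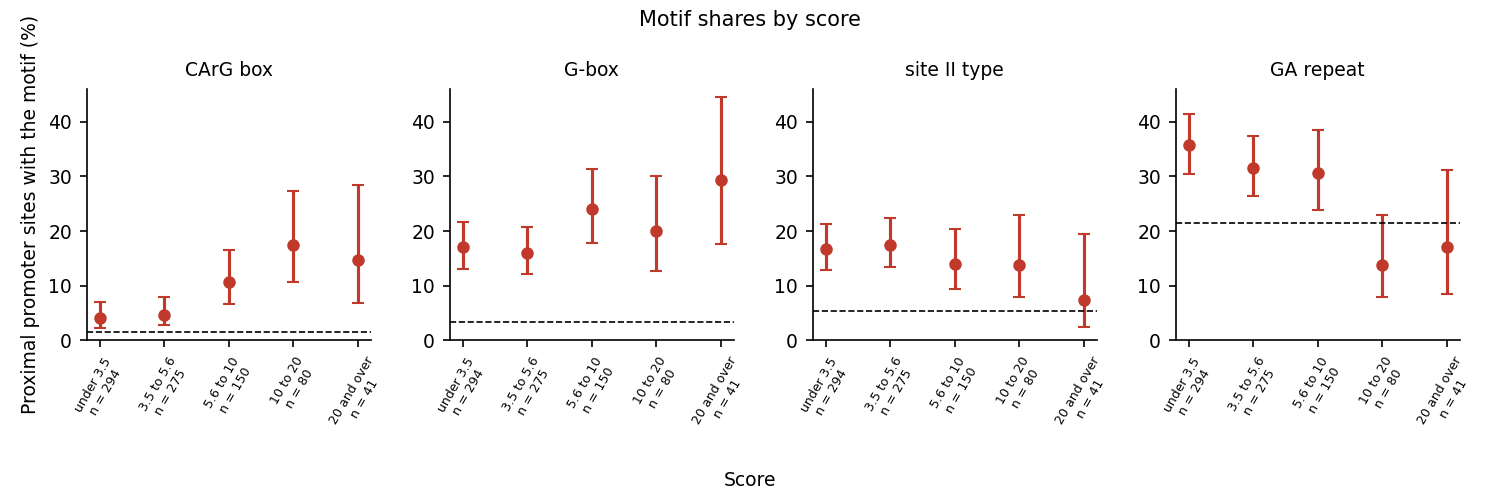
Share of proximal promoter sites with a CArG box, a G-box, the site II type motif or a GA repeat in 5 classes of the score, with 95% Wilson intervals and the number of sites in each class. Dashed lines are the shares in windows tiled over all proximal promoters. The CArG box went from 4.08% in the lowest class to 17.5% at scores of 10 to 20, whereas the GA repeat was at 35.7% in the lowest class and 13.8% at 10 to 20.

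The genes of the sites were described by 24 lists of genes, which were made from gene symbols or gene descriptions. Among all protein-coding genes 2.97% had a proximal promoter site and 0.977% had one with a score of at least 5.6. The highest share was found for MADS domain genes, of which 10 of 39 had a site (25.6%, 14.6 to 41.1), and 7 had a score of at least 5.6. This list was made of 39 gene symbols and not by a search of all descriptions, so it need not hold the whole family. Shares between 10.9% and 20% were found for the jasmonate genes, the SPL and TCP genes, the light, shade and clock genes and the auxin genes. The auxin list, of response and transport genes, had 19 of 174 (10.9%, 7.10 to 16.4), and 9 of these had the higher score. The lists are a description, since they were written with earlier results of these data known.

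**Figure D5:**
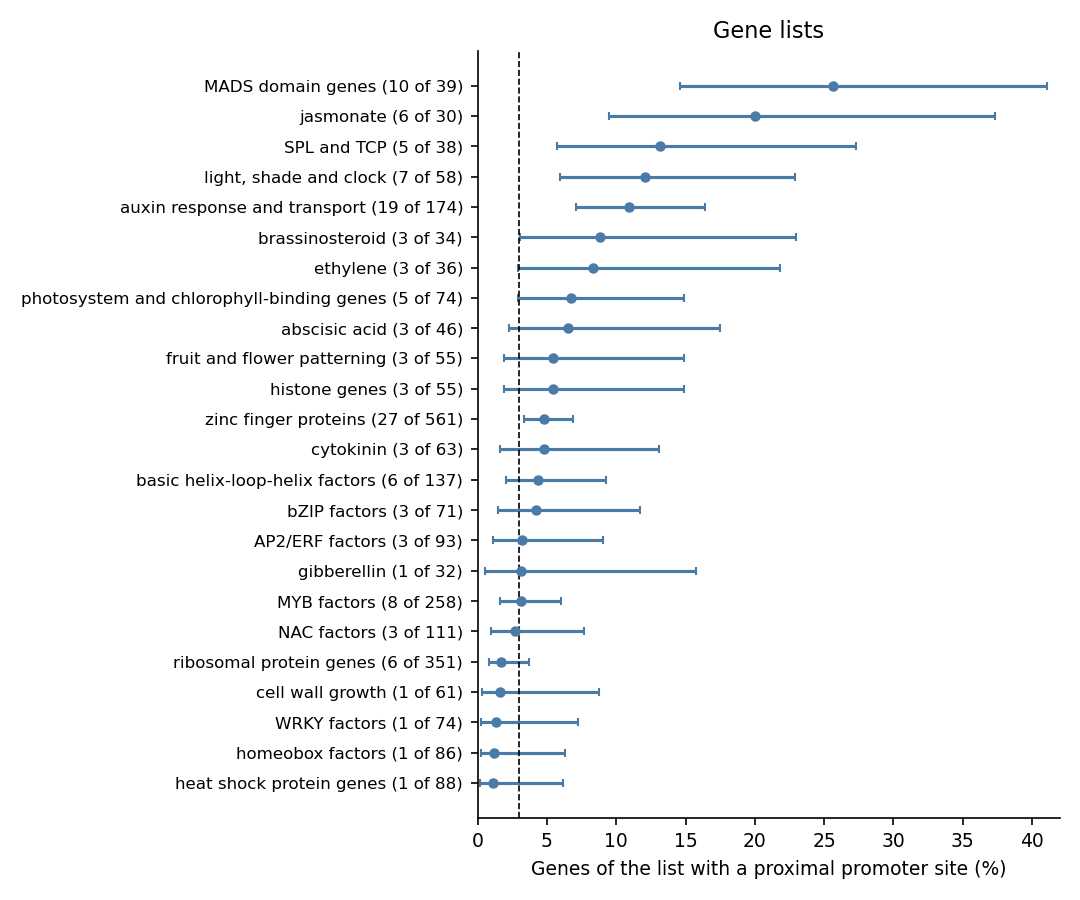
Percentage of the genes of each of 24 lists that had a proximal promoter site of any score, with 95% Wilson intervals and the number of genes. The dashed line is the share of all protein-coding genes, 2.97%. The MADS domain genes, a list made of 39 gene symbols, had the highest share, 25.6%. The heat shock protein genes had the lowest, 1.14%, with an interval that included the dashed line.

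Among the MADS domain genes, *SEP3*, a floral organ identity gene whose protein interacts with many other MADS domain proteins, and *SHP2*, which directs formation of the valve margin of the fruit, had the same score of 29.21. The *SHP2* site lay 732 bp from the start codon with a CArG box 18.5 bp from the maximum, whereas the *SEP3* site lay at 925 bp and had none. *AGL18* (15.90) and *AGL15* (12.59), which act together as repressors of flowering, had sites at 323 and 177 bp, and that of *AGL18* held a CArG box in the 5′ UTR. *SOC1* (listed as *AGL20*), an integrator of flowering signals, had a score of 11.03 at 905 bp, and *ANR1* (*AGL44*), known from nitrate responses of the root, had 8.71 at 549 bp with a G-box. The 3 with lower scores, named after their values were seen, were *SVP* (5.57), *AP3* (4.43) and *AGL31* (4.43). These scores are those of the proximal promoter sites only. In the paper's list of targets *SVP* and *SEP3* have higher best scores, from positions farther upstream. For *SVP* this is the peak with a score of 22.42, which is given above under AT2G22530 and held a CArG box. The window of *AGL31* had 2 further copies in the genome, which leaves its score uncertain.

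*FUL* itself, listed as *AGL8*, had a site with a score of 16.36 on chromosome 5 from 24505967 to 24506580. Its maximum was 250 bp away from the start codon and 6 bp inside the transcript, and its window held neither a CArG box nor a G-box. The plants carried the *FUL* promoter both at its own locus and in the transgene, and reads from the copies cannot be told apart.

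In the auxin list, *IAA4* and *GH3.3* were followed by 3 genes for small auxin up RNAs, a family whose members are induced quickly by auxin. These were *SAUR29* (25.16), *SAUR24* (11.24) and AT4G34800, or *SAUR4* (9.55). *SAUR28*, which lies near *SAUR29* on chromosome 3, and *IAA16*, an Aux/IAA gene, both had a score of 8.14, at 358 and 834 bp. None of the 9 sites of this list with a score of at least 5.6 held a CArG box or a G-box. Of all 271 proximal promoter sites with such a score 13.3% held a CArG box and 23.6% a G-box, and 9 sites are few.

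The list of jasmonate genes had a site at 6 of 30 (20%, 9.51 to 37.3), but only *JAZ6*, a repressor of the jasmonate response, reached a score of 5.6 (11.67). The others, named after their values were seen, were *JAZ1* (5.57), *JAZ3* (4.43), *JAZ5* (4.18), *LOX6* (3.95) and *LOX3* (3.4). In the list of light, shade and clock genes, with 7 of 58, the phytochrome interacting factor genes *PIF6* (listed as *PIL2*) and *PIF4* had scores of 8.71 and 8.14, and *COL1*, related to *CONSTANS*, had 8.14. Of the SPL and TCP genes 5 of 38 had a site, with *SPL8* at 9.55, *SPL11* at 7.30 and *TCP9* at 6.73. A further copy of the *SPL11* window was found in the genome. The shares of these 3 lists were 20%, 12.1% and 13.2%. At a score of at least 5.6 they were 3.33%, 5.17% and 7.89%. Of these, only the jasmonate interval (0.591 to 16.7) included the 0.977% of all genes.

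For other hormones the numbers were small. The abscisic acid list had 3 of 46 genes, all with a score of at least 5.6: the bZIP factor genes *ABF3* (12.59) and *ABI5* (9.55) and the receptor gene *PYL5* (5.85). The brassinosteroid list had 3 of 34, of which *BES1* had the higher score. The ethylene list had 3 of 36, with *RAV1* (21.31) and *TEM1* (8.14). For gibberellin 1 of 32 and for cytokinin 3 of 63 genes had a site, and 0 of these reached 5.6. At any score, the intervals of the abscisic acid, ethylene, gibberellin and cytokinin shares included the 2.97% of all genes. That of the brassinosteroid share (8.82%, 3.05 to 23.0) began just above it, with 3 genes. At a score of at least 5.6 the brassinosteroid share was 2.94% (0.521 to 14.9), and its interval included the 0.977% of all genes. The abscisic acid share at this score was 6.52% (2.24 to 17.5) and the ethylene share 5.56% (1.54 to 18.1). Both of these intervals began above 0.977%, with 3 and 2 genes.

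In the list of fruit and flower patterning genes, which holds no MADS domain genes, 3 of 55 had a site. The AP2-type repressors of flowering *TOE1* (listed as *RAP2.7*) and *SNZ* both had a score of 9.55, and the *TOE1* site held a CArG box. Among the factor families defined by description, *ZFP7* (27.16), *BBX13* (15.90), *DOF6* (9.55) and *ZFP8* (7) led the 27 of 561 zinc finger genes. *ERF15* (8.14) was 1 of 3 of 93 AP2/ERF genes, and *BZO2H3* (12.59) 1 of 3 of 71 bZIP genes. These lists depend on the wording of the descriptions: *NAC014* was not in the NAC list, in which 3 of 111 genes had a site.

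The lists with the lowest shares were those of heat shock proteins (1 of 88), homeobox factors (1 of 86), WRKY factors (1 of 74), cell wall growth (1 of 61) and ribosomal proteins (6 of 351). The intervals of these shares all included the 2.97% of all genes. In the ribosomal list AT3G53430, for a protein of the L11 family, had the highest score, 8.14. Genes whose description names histones had 3 of 55, with *HTB2* at 8.14 and AT5G10980 at 6.15, and photosystem and chlorophyll-binding genes 5 of 74, with *LHCB4.2* at 7.39. Basic helix-loop-helix genes had 6 of 137 and MYB genes 8 of 258, whose highest scores were those of AT5G58900, *MYBC1* and AT5G52660 named above.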

How the data were processed

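FUL-GFP was measured by ChIP-Seq in 2 replicates, with 2 inputs as background. Reads were aligned to TAIR9 by the authors with SOAPv2, unique matches were kept, and CSAR was used to find the sites. The deposited score of each site is 1 value that combines both replicates. It has no error, and no column of values per sample was left unused (0).

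Sites were placed by their listed maximum on the gene models of the RefSeq TAIR10.1 annotation (27444 protein-coding genes). TAIR9 and TAIR10 share the nuclear assembly, and all site ends lay within the chromosome lengths. Motifs were searched in windows of 201 bp, also in 112316 windows tiled over all proximal promoters. Shares have Wilson and differences Newcombe 95% intervals. Copies were searched with BLAST 2.17.0+ (e-value 1e-10, at least 80% identity over at least 80% of the window). The score threshold was the lowest best score of a gene in the published list of targets, and sites below it were kept. The scripts ran under Python 3.11.15 with scipy 1.17.1, pandas 2.3.3, matplotlib 3.10.9 and numpy 2.4.6. Planted sites and boxes were recovered in a test on simulated data.

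The members and the lists were chosen with earlier results of these data known. The genes named were the 20 highest scores, the 10 highest with a CArG box, the 5 highest upstream of 2 start codons, the 3 at each limit, at most 6 of each list with a score of at least 5.6, and *SHP2*, *IAA16* and *BZR2*. The examples with a G-box and others so marked were chosen after their values were seen. The motifs other than the CArG box were added after the list had been examined. Symbols that 2 unrelated genes share were assigned to the gene the list is about.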

Additional observations from a re-analysis of the deposited data

How the results depend on the processing

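No paired analysis was possible because the scores of both replicates were combined, and for the same reason no replicate could be left out in turn. The number of proximal promoter sites was 593 with a limit of 500 bp and 1116 with 2000 bp, 850 by the midpoint of the site, 835 with the first isoform and 804 after merging. Measured from the transcript start it was 538, of which 437 were among the 840, because sites in transcripts are then left out. The share with a score of at least 5.6 was 29.2% with a limit of 500 bp, and 14.4% reached a score of 10. Its difference from the distal upstream sites was -0.58 points (-8.98 to 7.15) with a limit of 2000 bp, so that the lower share of the proximal sites depended on this limit. It was -9.81 points with a limit of 500 bp and -4.65 points at a score of 10. The CArG box share was 4.76% within 50 bp, 10% within 200 bp, 43.5% with 1 mismatch, 13.3% at scores of at least 5.6 and 9.36% without the sites whose maximum is their first base. The G-box share was 8.93% within 50 bp, 28.1% within 200 bp and 23.6% at scores of at least 5.6. The median distance was 373 bp at scores of at least 5.6. The difference in CArG box share from the distal upstream sites lay between -1.96 and -0.59 points under 4 alternatives and did not exclude 0 in any of them. The alternatives for the G-box, the first-base sites, the repeated sequences and the assignment of list genes were chosen after the data had been seen. Low scores limit the precision of the maximum, and counts of under 10 genes in a list limit its share.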

Other observations

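The scores were heaped on a few values: 235 of the 840 proximal promoter sites had a score of 3.4, and the 840 sites shared 112 different values. There were 188 sites shorter than 50 bp. Sites with equal scores are therefore not ordered by the list.

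More than one proximal promoter site was found at 25 genes, 24 with 2 sites and AT3G41762 with 3. At most of the 24 both scores were low, as at the potassium transporter gene *KT2* (3.4 and 3.4) and at *TET2*, a tetraspanin gene (5.57 and 3.4). The exceptions with a score over 8 were *ERD9*, a glutathione transferase gene, with 8.55 at 223 bp and 6.81 at 699 bp, AT4G32290 with 8.33 at 711 bp and 3.4 at 477 bp, and AT5G13100 with 15.29 at 485 bp and 3.52 at 82 bp. At 73 of the 840 sites another site of the list lay within 500 bp.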
